A study of Mus musculus with 3 samples.

Results

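The genes of cholesterol and fatty acid synthesis were examined in EpH4-PR cells, an EpH4 line that carries a stably introduced progesterone receptor A. Members were the 38 genes of a fixed list, found on the arrays as every non-control probe whose gene name was on the list, with older names matched through the RefSeq accession of the probe. One of them, Acaca, was matched through its older name Acac, Acss2 and Me1 were listed as Acas2 and Mod1, and Sc4mol is now called Msmo1. The 38 genes were represented by 67 of the 41174 probes tested and made up 38 of the 30336 genes tested.

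The series consisted of 3 two-colour whole-genome expression arrays, EpH4-PR replicates 1, 2 and 3. EpH4 is a mouse mammary epithelial cell line from the mid-gestation gland, and EpH4-PR cells are clones of it selected after transfection. The cells were kept in DMEM with 10% FBS to about 75% confluence, with no hormone treatment. The growth medium that the paper describes for them also holds neomycin (G418). On every array EpH4-PR RNA was labelled with Cy5 and a commercial mouse reference RNA, named in the labels as the Stratagene mouse standard, with Cy3. The promoter that drives the receptor, the number of clones behind the RNA, and whether the replicates were separate cultures are not given in the sources used here.

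Each log2 ratio below is therefore a level in EpH4-PR cells over a level in the reference RNA, and not an effect of the receptor. Empty-vector EpH4-EV cells were not analysed here. No array had the dyes exchanged, so a probe's dye effect and a true difference between the RNAs cannot be told apart. In a ratio of bulk RNA, fewer cells of a type and less RNA per cell cannot be told apart either.

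Cholesterol is made from acetyl-CoA through mevalonate, isoprenoid diphosphates and squalene, which is closed to lanosterol and then trimmed and reduced to cholesterol. Fatty acids are made from the same acetyl-CoA by acetyl-CoA carboxylase and fatty acid synthase, and are then lengthened by elongases and given double bonds by desaturases. Many of these genes are switched on by the sterol regulatory element binding proteins (SREBPs), which Scap carries to the Golgi for activation and which Insig proteins hold back when sterols are plentiful. SREBPs bind sterol regulatory elements close to gene starts, commonly beside binding sites of NF-Y and Sp1. In the mammary gland this programme is known for supplying milk fat during lactation.

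Promoter sequence was taken from the RefSeq table of the mouse assembly GRCm38.p6, which gives 250 bases before to 50 bases after each start. In it 31 of the 38 genes were matched, with 42 promoters between them, and Fads1, Fdft1, Fdps, Lpl, Scd1, Scd2 and Sqle were not. Stretches of 200 bases that end at the base before the start are shown for 4 genes that were higher in EpH4-PR cells than in the reference (Hmgcs1, Idi1, Hsd17b7 and Fasn) and for 1 that was lower (Cd36), to show the differing content of motifs. They read 5′ to 3′ on the strand of the gene. Capitals mark TCACNCCAC (a sterol regulatory element consensus), CCAAT (bound by NF-Y) and GGGCGG (bound by Sp1), each searched for on both strands, so that ATTGG and CCGCCC are the reverse forms of CCAAT and GGGCGG.
Hmgcs1, chr13:119690151-119690350, plus strand: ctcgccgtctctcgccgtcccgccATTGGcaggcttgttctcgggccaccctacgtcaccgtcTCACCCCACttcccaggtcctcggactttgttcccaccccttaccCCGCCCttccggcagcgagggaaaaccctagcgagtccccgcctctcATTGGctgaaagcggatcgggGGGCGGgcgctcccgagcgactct
Idi1, chr13:8885406-8885605, plus strand: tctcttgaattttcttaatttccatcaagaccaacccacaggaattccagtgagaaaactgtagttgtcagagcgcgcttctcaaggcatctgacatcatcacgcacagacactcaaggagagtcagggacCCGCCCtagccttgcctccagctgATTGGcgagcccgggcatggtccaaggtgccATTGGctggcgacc
Hsd17b7, chr1:169969206-169969405, minus strand: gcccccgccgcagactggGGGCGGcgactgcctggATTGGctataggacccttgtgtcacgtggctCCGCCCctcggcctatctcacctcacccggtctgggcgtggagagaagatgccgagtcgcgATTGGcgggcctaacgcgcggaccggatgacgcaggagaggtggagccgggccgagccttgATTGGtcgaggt
Fasn, chr11:120824548-120824747, minus strand: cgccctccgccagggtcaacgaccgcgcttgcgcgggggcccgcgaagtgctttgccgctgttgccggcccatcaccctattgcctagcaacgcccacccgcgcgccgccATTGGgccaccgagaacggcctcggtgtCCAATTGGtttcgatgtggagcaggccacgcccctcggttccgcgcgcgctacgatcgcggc
Cd36, chr5:17835897-17836096, minus strand: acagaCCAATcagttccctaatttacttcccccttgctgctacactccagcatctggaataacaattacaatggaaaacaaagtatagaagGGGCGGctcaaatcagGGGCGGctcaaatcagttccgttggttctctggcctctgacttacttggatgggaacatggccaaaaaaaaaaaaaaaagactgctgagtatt

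The sterol element in Hmgcs1 started at position -137 from the start, and it was the only match to TCACNCCAC among the 42 promoters (2.38%), where 1.24% of all 32851 promoters in the table held one. CCAAT was present in 27 of the 42 promoters (64.3%), against 37.4% of all promoters and 38.2% of those of protein-coding genes. GGGCGG was found in 30 of the 42 (71.4%), against 35.7% and 46.2%. In Fasn, 2 of the matches to CCAAT lie on opposite strands and overlap, and are printed as 1 run of capitals. Counted by gene, with 1 matching promoter enough, CCAAT was held by 26 of 31 members (83.9%), 41.1% of all genes and 42.3% of protein-coding genes. Among the members whose EpH4-PR level was called higher, 9 of the 12 genes with a promoter held CCAAT. Among the members that differed by less than 1 log2 unit it was 16 of 18 genes. These matches describe letters in a short window and not bound sites.

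The arrays gave a similar depth. Between 29603 and 30939 probes were well above background in Cy5 and between 32587 and 33261 in Cy3, and log2 ratios correlated between pairs of arrays at 0.92 to 0.95 over all probes. Of the 67 member probes, 62 exceeded background clearly (the scanner software's flag) in Cy5 and Cy3 on all 3 arrays and 0 were saturated. For each gene the probe with the highest mean intensity stood for it, and 37 of these 38 probes had that flag in both channels throughout, the exception being Cd36. In 8 of them (Acat2, Mvk, Lss, Insig1, Thrsp, Acaca, Gpam and Cd36) at least 1 channel did not pass the 95th percentile of the negative control spots on every array. Among markers of cell types, 6 of 7 epithelial genes were called higher in EpH4-PR cells and 1 lower (Krt19), 6 of 6 fibroblast genes and 5 of 6 macrophage genes were called lower, and 0 of 7 adipocyte, 0 of 6 hepatocyte and 0 of 6 milk-secretion genes were called either way by limma, with 3, 2 and 2 of them at an unadjusted p under 0.05.

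Most steps of both pathways stood higher in EpH4-PR cells than in the reference. A gene was called when its ratio differed from 0 at an adjusted p under 0.05 (limma, Benjamini-Hochberg over all probes) and by at least 1 log2 unit, which is 2-fold. By this rule 16 of 38 members (42.1%) were called higher, where the share over all 30336 genes was 2.28%, and 2 of 38 (5.26%) were called lower, against 4.48% of all genes. Without the limit on size, 26 members lay above 0 at that adjusted p (68.4%, against 23.9% of all genes) and 9 lay below (23.7%, against 26.8%), and 3 did not pass the test. The median log2 ratio of the members was 0.77, and that of all genes was -0.02. Among the 19243 genes with that flag in both channels on all arrays 3.46% were called higher and 6.54% lower, with a median of 0.01.

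**Figure D1:**
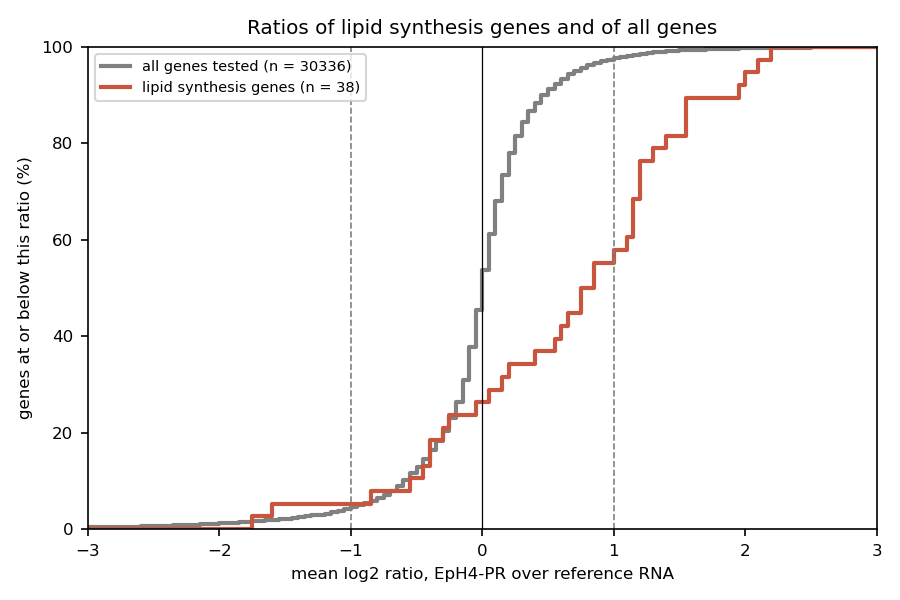
Cumulative share of genes (vertical axis, percent) at or below each mean log2 ratio of EpH4-PR cells to the reference (horizontal axis, in steps of 0.05), for all 30336 genes tested (grey) and the 38 lipid synthesis genes (red), with dashed lines at a log2 ratio of -1 and 1. The red curve stays near the grey one up to about -0.25 and runs to the right of it above that. At or below 0 lay 53.7% of all genes and 26.3% of the lipid synthesis genes, and 42.1% of the latter were called past 1.

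In the mevalonate branch, from acetyl-CoA to squalene, 5 of 8 genes were called higher, and the median log2 ratio was 1.15. All 8 lay above 0 past the test, though Mvd lost it with an offset of 0 (adjusted p = 0.0589), with the deposited ratios (0.0593), with an unmoderated test (0.174) and without replicate 2 (0.0727). Hmgcs1, which makes HMG-CoA, had log2 ratios of 1.57, 1.45 and 1.57 on replicates 1, 2 and 3 (mean 1.53 ± 0.07, SD, n = 3, adjusted p = 3.23e-05). For Mvk, mevalonate kinase, the ratios were 1.08, 1.09 and 1.21 (1.13 ± 0.07, adjusted p = 6.9e-05). All 3 arrays lay above 1 for both genes.

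Idi1, the isomerase that balances the isoprene units, gave 1.94, 1.94 and 1.96 (1.95 ± 0.01, adjusted p = 1.81e-05), a 3.85-fold difference. Fdps, which joins those units into farnesyl diphosphate, gave 1.89, 1.99 and 2.04 (1.98 ± 0.08, adjusted p = 2.25e-05), a 3.93-fold difference. Fdft1, squalene synthase and the first step given over to sterols, gave 1.12, 1.22 and 1.15 (1.16 ± 0.05, adjusted p = 5.36e-05). The arrays differed by far less than the distance of these genes from 0. Smaller ratios were measured for the thiolase Acat2 (mean 0.82), the kinase Pmvk (0.60) and the decarboxylase Mvd (0.61 ± 0.35, adjusted p = 0.0165). Mvd had the widest spread of all 38 members, with 0.22 on replicate 1, 0.71 on replicate 2 and 0.91 on replicate 3.

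From squalene to cholesterol, 9 of 9 genes lay above 0 past the test and 5 of 9 were called higher, with a median of 1.05. Ebp lost the test with an offset of 0 (adjusted p = 0.123), with the deposited ratios (0.0663), without replicate 1 (0.112) and without replicate 2 (0.0866). Sqle, the epoxidase that starts the branch, had ratios of 1.04, 1.07 and 1.05 (1.05 ± 0.02, adjusted p = 5.49e-05). Lss, which closes the ring to lanosterol, had 1.35, 1.38 and 1.39 (1.37 ± 0.02, adjusted p = 3.09e-05). Cyp51, the lanosterol demethylase, had 1.14, 1.08 and 1.24 (1.15 ± 0.08, adjusted p = 7.09e-05). The ratios of these 3 genes stayed above 1 on every array.

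Hsd17b7, the ketosteroid reductase of demethylation at carbon 4, reached 1.47, 1.58 and 1.48 (1.51 ± 0.06, adjusted p = 3.22e-05). Dhcr7, which makes cholesterol in the last step of one route, reached 1.67, 1.45 and 1.44 (1.52 ± 0.13, adjusted p = 6.36e-05), with replicate 1 above the other two. Sc5d, the desaturase just before it, had a mean of 0.98, just short of the limit of 1. The oxidase Sc4mol (0.73) and the dehydrogenase Nsdhl (0.72) followed, and the isomerase Ebp, at 0.18 (adjusted p = 0.0196), had the lowest ratio of the branch.

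The 6 genes that control the programme had a median of 0.09. By limma 0 of 6 were called, 2 lay above 0 past the test and 1 below, and 4 had an unadjusted p under 0.05. With median centring 3 of the 6 were called higher, Srebf1 at 1.69, Srebf2 at 1.09 and Scap at 1.48, and with the deposited ratios 1 was, Insig1 at 1.04. The shares of all genes called higher were then 17.9% and 7.44%. Srebf2, which encodes the SREBP that mainly drives sterol genes, had ratios of 0.01, 0.05 and 0.07 (adjusted p = 0.435), and Srebf1, whose product mainly drives fatty acid genes, had 0.33, 0.44 and 0.32 (0.37 ± 0.06, adjusted p = 0.00249). Scap had 0.13 on average (adjusted p = 0.0509). Its 3 arrays lay within 0.12 to 0.13.

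Insig1 was at 0.53 ± 0.06 (adjusted p = 0.000582), while Insig2 was below 0 on all 3 arrays, at -0.80, -0.87 and -0.98 (-0.89 ± 0.09, adjusted p = 0.000173), a direction that turned to 0.28 with median centring. The 2 Insig genes code for related proteins of the endoplasmic reticulum. Thrsp, a lipogenic nuclear protein of liver and mammary gland, had ratios on both sides of 0 (-0.10, -0.24 and 0.12, adjusted p = 0.464), and its EpH4-PR signals of 72.2 to 89.9 intensity units were close to those of the negative controls, whose 95th percentile was 62.9 to 87.4.

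Fatty acid synthesis split within a short pathway. Acly, Acaca and Fasn, the enzymes that lie in a line from citrate to palmitate, were called higher. Acss2 and Me1, which feed it with acetyl-CoA from acetate and with NADPH, lay below 0. Fasn, fatty acid synthase, had the highest ratio of all 38 members, with 2.23, 2.16 and 2.20 (2.20 ± 0.03, adjusted p = 1.64e-05), a 4.58-fold difference. Acaca, acetyl-CoA carboxylase, had 1.28, 1.27 and 1.21 (1.25 ± 0.04, adjusted p = 3.98e-05). For Acly, ATP citrate lyase, the ratios were 1.12, 1.13 and 1.15 (1.13 ± 0.01, adjusted p = 4.54e-05).

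Acss2 had -0.48, -0.51 and -0.69 (-0.56 ± 0.11, adjusted p = 0.00108). Malic enzyme Me1 had a mean of -0.26 (adjusted p = 0.00655), which became 0.91 with median centring. Neither reached 1 log2 unit.

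The desaturases and elongases also divided. Of 7 genes, 3 were called higher, 4 lay above 0 past the test and 3 below. Elovl6, which lengthens palmitate to stearate, had 2.08, 2.03 and 2.14 (2.08 ± 0.06, adjusted p = 1.83e-05), a 4.24-fold difference. The stearoyl-CoA desaturase Scd1, which makes oleate, had 1.13, 1.16 and 1.20 (1.16 ± 0.04, adjusted p = 4.7e-05), and its paralog Scd2 had 0.82 ± 0.02 (adjusted p = 0.000105). Fads2, the first desaturase of the polyunsaturated chain, had 1.09, 1.10 and 1.26 (1.15 ± 0.09, adjusted p = 8.38e-05). All 4 of these genes lay above 0 on each array.

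Fads1, which acts later on the same polyunsaturated fatty acids, had a mean of -0.43 (adjusted p = 0.00156). The elongases Elovl5, which serves that chain, and Elovl1, which works on saturated very long chains, had -0.43 and -0.30. All 3 means were below 0 after loess and turned to 0.45, 0.83 and 0.89 with median centring. Standard errors of the 18 called ratios ran from 0.04 to 0.06 log2 units.

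**Figure D2:**
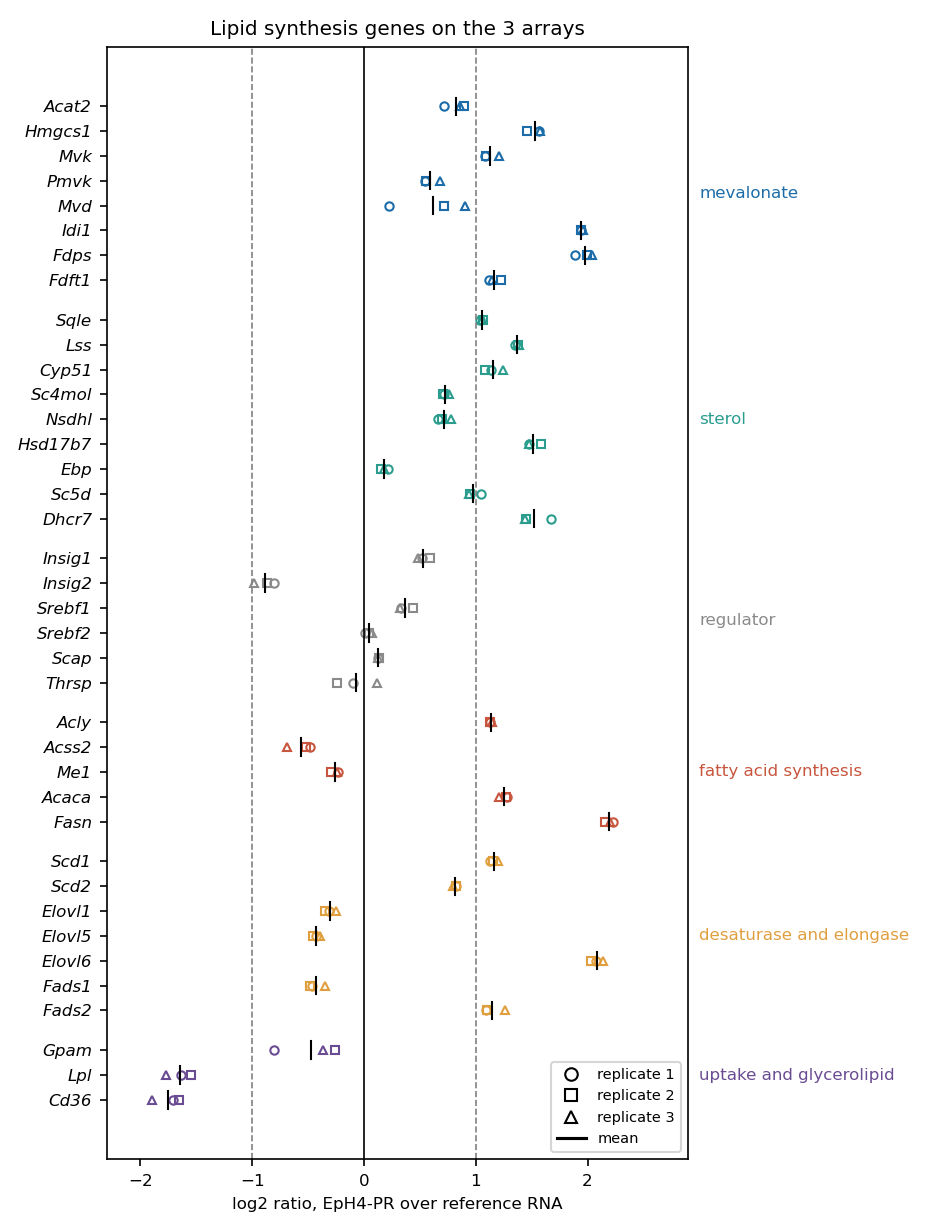
Log2 ratio of EpH4-PR cells to the reference (horizontal axis) for the representative probe of each of the 38 genes (rows, coloured by step), with 1 symbol per array, a black bar at the mean and dashed lines at -1 and 1. All 17 mevalonate and sterol genes lie to the right of 0, the regulators lie on both sides of 0 between -1 and 1, and Lpl and Cd36 lie below -1.

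The 3 genes of uptake and glycerolipid assembly were the lowest group, with a median of -1.65. Lpl, the lipase that frees fatty acids from circulating triglyceride, had -1.63, -1.55 and -1.77 (-1.65 ± 0.11, adjusted p = 4.21e-05), a 3.14-fold lower level than in the reference. This call was lost with median centring, at -0.84, and with the mean over the gene's probes, of which the second gave -0.31. Cd36, a fatty acid translocase, had -1.71, -1.66 and -1.90 (-1.75 ± 0.13, adjusted p = 4.32e-05). Its EpH4-PR signal was 82.4, 87.2 and 62.9 units, not above the 95th percentile of the negative controls on any array, while the reference gave 195 to 233. The size of its ratio moved with the background treatment, to -3.32 with an offset of 0 and -3.99 with the deposited ratios, and the gene was called lower under both. Gpam, which starts glycerolipid assembly, had -0.80, -0.26 and -0.36 (-0.48 ± 0.29, adjusted p = 0.0211). Gpam lost the test with the deposited ratios, with median spot signals and with an unmoderated test.

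Both Lpl and Cd36 are also made by macrophages and adipocytes. The sums of marker signals given here are raw, without background correction or balancing of the dyes. Negative controls had medians of 57.3 to 74.1 units in Cy5 and 91.8 to 121.5 in Cy3. The macrophage markers summed to 783 to 915 signal units in EpH4-PR cells and 2868 to 2987 in the reference. In EpH4-PR cells Ptprc was at the level of the negative controls, while Cd68, Emr1, Csf1r, Lyz2 and Cd14 passed their 95th percentile on every array. Fibroblast markers summed to 3051 to 3483 in EpH4-PR cells and 41392 to 47046 in the reference. The adipocyte markers, without Cidec, which had an outlier spot on replicate 1, summed to 459 to 565 in EpH4-PR cells and 630 to 876 in the reference, and Adipoq, Plin1, Cfd and Retn were at the level of the negative controls in the reference. The part of these cell types in the ratios was not tested.

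Epithelial markers moved the other way, with raw sums of 74583 to 89752 units in EpH4-PR cells and 9331 to 10129 in the reference. After loess, which balances the dyes, their median log2 ratio was 1.26. This is the same direction as the 16 genes called higher, and the part of epithelial cells was not tested. Raw sums of the milk-secretion markers were 640 to 797 in EpH4-PR cells and 742 to 964 in the reference, with a median log2 ratio of -0.17 after loess. Csn2 and Btn1a1, a casein and a milk fat globule protein, were at the level of the negative controls in both. Csn3, Wap, Lalba and Xdh passed the 95th percentile of those controls in EpH4-PR cells on every array, with Csn3 at 111 to 146 units and Xdh at 254 to 284.

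Probes of the same gene often gave different ratios, and with the mean over a gene's probes in place of the brightest probe 9 members were called higher and 1 lower, losing Acaca, Acly, Cyp51, Fdft1, Hmgcs1, Lss, Mvk and Lpl. Of the 22 members with several probes, 18 had probes on the same side of 0 and 4 (Fdft1, Lss, Sc5d and Acss2) did not, and the median distance between the highest and the lowest probe was 0.73 log2 units. In 18 of the 22 the brightest probe had the ratio farthest from 0, which fell to 13 when no constant was added after background correction, with a median distance of 0.58. For Hmgcs1 the distance shrank from 0.83 to 0.22, and for Dhcr7 from 0.60 to 0.03. For Fasn, where the second probe gave 0.58 against 2.20, it went from 1.62 to 1.21.

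Lss differed most, with 2 probes at 1.37 and 1.04 and the other at -1.51 ± 0.13 (adjusted p = 6.32e-05), so that 1 of its 3 probes was called in the opposite direction. Acaca rested on 1 of 3 probes, the others giving 0.12 and 0.16 without passing the test. For Srebf2 the brightest probe gave 0.04 and the other two 0.27 and 0.79, both past the test. The dimmer Fdft1 probe gave -0.11 (adjusted p = 0.0828) and the dimmer Sc5d probe -0.15 (adjusted p = 0.422). The 2 Acss2 probes, at -0.56 and 0.27, passed the test in opposite directions.

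Other genes kept their direction on every probe. The second Idi1 probe gave 1.31 and the second Fdps probe 0.92. Both Cd36 probes were called lower, at -1.75 and -1.65. For the dimmer Acly probe the reference channel was not well above background on any array. It gave at least a 1.23-fold higher level in EpH4-PR cells (adjusted p = 0.00797). This bound took, on each array, the larger of the reference signal and the dimmest signal that was well above background. The EpH4-PR signal of that probe passed the 95th percentile of the negative controls on only 1 array. For Insig2, a probe that was not well above background in EpH4-PR cells on any array gave a 1.19-fold lower level there (adjusted p = 0.00815), which is the measured ratio and not a bound. Its reference signals of 91.0 to 129 units did not pass the 95th percentile of the negative controls on any array either.

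**Figure D3:**
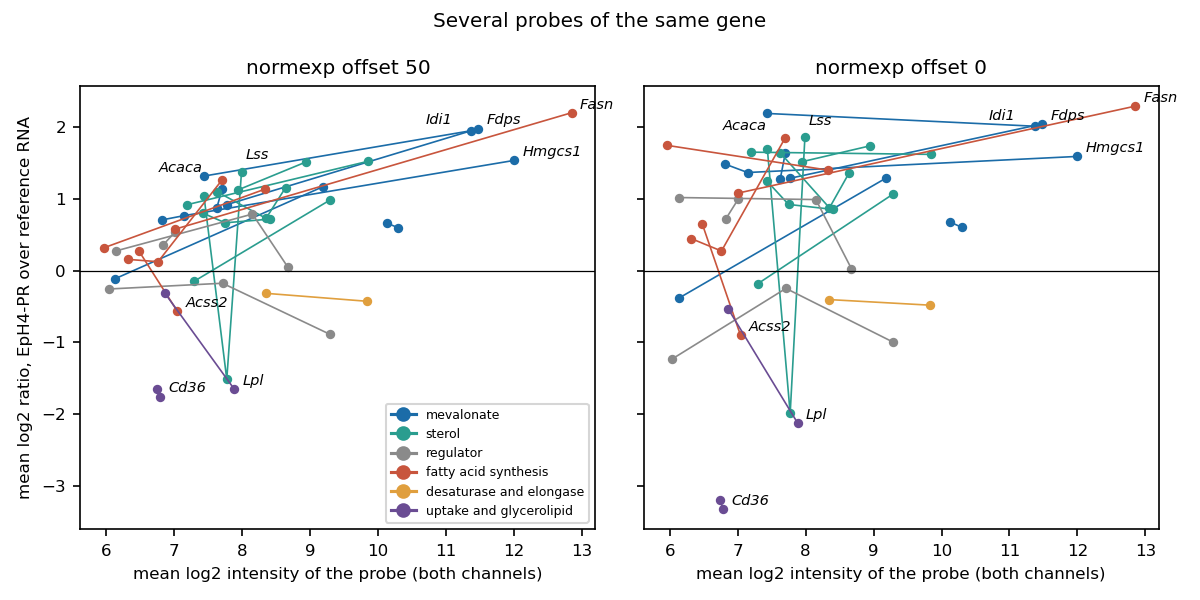
Mean log2 ratio of EpH4-PR cells to the reference (vertical axis) against mean log2 intensity of the probe (horizontal axis, as after an offset of 50 in both panels) for the 22 genes with several probes, with lines joining probes of the same gene. With an offset of 50 (left) the brighter probes of most genes lie farther from 0, with 0 (right) several lines are flatter, and Lss keeps 1 probe far below 0 in both.

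The ratios depended on how the dyes were balanced. In the raw signals, Scap had 2714 to 2970 units in EpH4-PR cells and 929 to 983 in the reference, and loess, which removes any trend of the ratio with intensity, set its log2 ratio at 0.13. With each array only centred on its median, Scap stood at 1.48 and the median of all probes flagged above background in both channels was 0.42, where loess had it at 0.04. Under that scaling 27 members were called higher and 1 lower, and the median of the members was 1.89, but over all genes 5436 were then called higher and 614 lower, against 693 and 1359 after loess. Relative to the median of the well-measured probes, the members' median was 0.73 higher after loess and 1.47 higher with median centring, and 28 and 32 of the 38 members lay above it. All 16 genes called higher after loess were among the 27, at 1.87 to 3.69. With the deposited ratios, Mvk, Lss and Acaca, whose reference signals were close to the negative controls, stood at 2.18, 2.10 and 2.19.

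**Figure D4:**
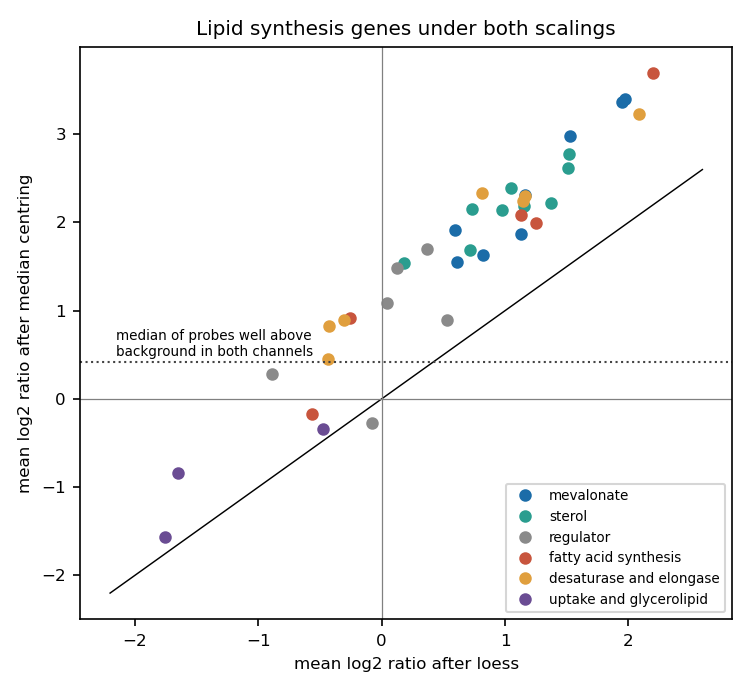
Mean log2 ratio of each of the 38 genes after median centring (vertical axis) against that after loess (horizontal axis), coloured by step, with the line of equality and a dotted line at the median, after median centring, of all probes flagged above background in both channels (0.42). Most genes lie above the line of equality. Cd36 and Lpl are farthest below 0 on both axes, and Acss2, Gpam and Thrsp are also below 0 on both.

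Another 47 lipid genes, listed by role, were read in the same way. Of these 4 were called higher and 4 lower (8.51% each, against 2.28% and 4.48% of all genes), with a median of 0.15. With median centring it was 22 and 2, where 17.9% of all genes were called higher and 2.02% lower. Among the 17 cholesterol genes, 3 were called, all of them lower in EpH4-PR cells, whereas median centring called 7 higher and 1 lower.

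They were Npc2, which takes cholesterol out of lysosomes (-2.00, -1.96 and -2.03, adjusted p = 1.81e-05), and the cholesterol exporters Abca1 (-1.65, -1.63 and -1.54, adjusted p = 2.83e-05) and Abcg1 (-1.22, -1.18 and -1.52, adjusted p = 0.000181). With median centring Npc2 (-0.68) and Abcg1 (-0.57) were no longer called and Abca1 stayed, at -1.12. All 3 are also found in macrophages, whose markers had the sums given above, and that part was not tested.

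Of the 17 fatty acid genes, 2 were called higher, the elongase Elovl7 (1.80 ± 0.07, adjusted p = 2.45e-05) and the acyl-CoA synthetase Acsl3 (1.09 ± 0.04, adjusted p = 5.76e-05). Among the 13 genes of glycerolipids and storage, the lipid droplet coat protein Plin2 (1.61 ± 0.04, adjusted p = 2.47e-05) and the triglyceride lipase Pnpla2 (1.03 ± 0.06, adjusted p = 7.51e-05) were called higher and the fatty acid carrier Fabp3 lower (-1.97 ± 0.14, adjusted p = 3.68e-05). Each of these 5 genes had its 3 arrays on the same side of 0.

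**Figure D5:**
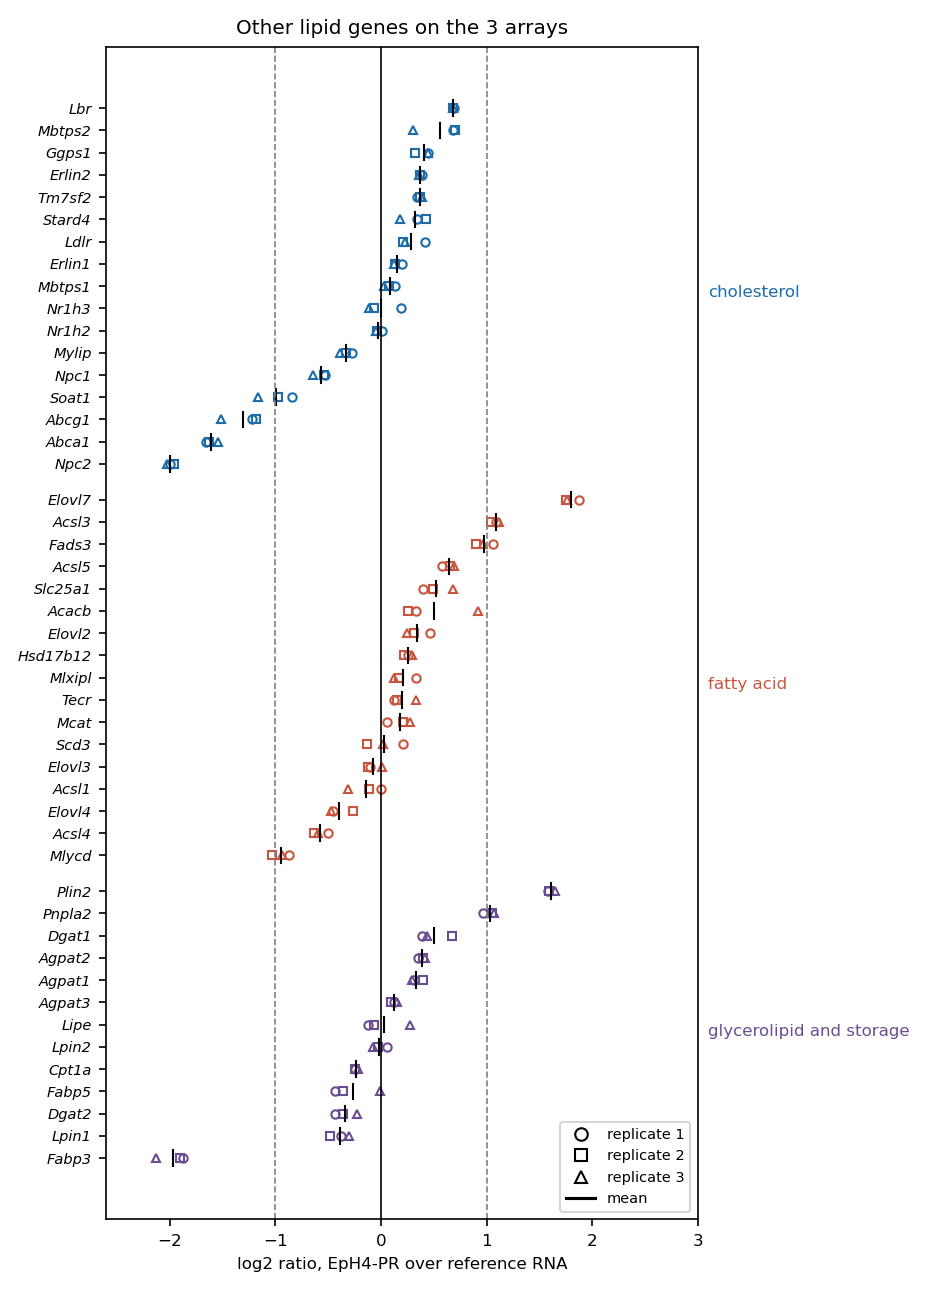
Log2 ratio of EpH4-PR cells to the reference (horizontal axis) for 47 other lipid genes (rows, sorted by mean within 3 roles), with 1 symbol per array, a black bar at the mean and dashed lines at -1 and 1. Elovl7 and Plin2 lie farthest to the right, and Npc2 and Fabp3 farthest to the left.

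Across the 3 arrays the members varied little. The median SD of their log2 ratios was 0.06, with a range of 0.01 to 0.35, and that of all probes flagged above background in both channels was 0.09. Replicate 3 gave the highest ratio for 19 of 38 members (50%), replicate 2 for 11 and replicate 1 for 8, whereas over all genes replicate 3 was highest for 35.6%. Medians of the members were 0.72, 0.77 and 0.83 on replicates 1, 2 and 3, and those of all genes lay between -0.03 and -0.01. Without any 1 of the arrays, the same 16 members were called higher and the same 2 lower.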

How the data were processed

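Total RNA of EpH4-PR cells (Cy5) and the reference RNA (Cy3) was hybridised to 3 Agilent whole mouse genome arrays. Per the file headers, the scans were read with Agilent Feature Extraction 8.1.1.1, and the authors deposited an intensity per spot and channel and a log10 ratio of processed Cy5 over Cy3. A series table of the authors' own comparison (log ratio, fold change, p-value and intensities) was not used.

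Mean signals were corrected against the local background with normexp (offset 50) and normalized by loess within arrays, with controls and outlier spots (3 to 150 per array) at weight 0 and then removed. Spots of a probe were averaged. Ratios were tested against 0, two-sided, with limma 3.58.1 in R 4.3.3 (lmFit, eBayes) and Benjamini-Hochberg adjustment over all probes. Each gene was represented by its brightest probe. Of 23705 probes with a RefSeq accession, 21445 were matched to the GRCm38.p6 gene table. With 3 arrays of 1 group, p-values measure the spread between these samples, which may be technical, and that number limits the precision.

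The procedure was tested on simulated data with 41174 probes, 200 of them set 2 log2 units from 0. It recovered 100% of them with 0 false calls and a median size of 1.70. In the simulation both channels started from the same signal. The changed probes were all well above background in both channels, as many up as down. The simulation therefore did not test the dye balance, the unequal numbers of higher and lower calls, or the dim probes of the real arrays. All members were described, those called or with disagreeing probes in full, with other genes from fixed lists of lipid and marker genes. Some genes of the lipid list are not reported here and were left out of its counts. Members and lists were chosen with earlier results of these data known. Alternatives were an offset of 0, the deposited log10 ratio, median centring, a filter on dim probes, outliers kept, median spot signals, an intensity trend, an unmoderated one-sample test, the mean over a gene's probes, and leaving out each array.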

Additional observations from a re-analysis of the deposited data

How the results depend on the processing

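The 16 members called higher and the 2 called lower were the same with dim probes filtered, outliers kept, median spot signals, an intensity trend, an unmoderated one-sample test, and each array left out. The median of the members, 0.77 as reported, was 0.95 with an offset of 0, 1.01 from the deposited ratios and 1.89 with median centring, and 0.76 to 0.81 with 1 array left out. An offset of 0 gave 18 called higher, adding Acat2 and Sc5d, and the deposited ratios gave 19, adding Insig1 as well. The share of all genes called higher also rose, from 2.28% in the main setting to 6.43% and 7.44%. Median centring gave 27 higher and 1 lower, where Lpl was lost, with 17.9% of all genes called higher and 2.02% lower. Taking the mean over the probes of a gene gave 9 higher, 1 lower and a median of 0.57, and that mean with an offset of 0, chosen after seeing the data, gave 15, 2 and 0.76. The 4 higher and 4 lower of the 47 other lipid genes became 6 and 7 with an offset of 0, 6 and 8 from the deposited ratios and 22 and 2 with median centring, and 4 to 5 and 4 to 5 with 1 array left out, all run after seeing the data. The share of all genes called lower was 4.48% in the main setting, 10.5% with an offset of 0 and 10.3% from the deposited ratios.

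Of 736 probe values under the alternatives, 674 kept their direction and their side of an adjusted p of 0.05. Another 40 no longer passed that limit, 12 newly passed it and 10 turned. These counts leave out the limit of 1 log2 unit and so are not counts of calls. With the filter on dim probes, the intensity trend and the unmoderated test the ratios themselves were unchanged, so no direction could turn there. Median centring turned the dimmer Sc5d probe (0.40), 2 Insig2 probes (0.28 and 0.57), Me1 (0.91), Elovl1 (0.89), both Elovl5 probes (0.83 and 0.64) and Fads1 (0.45). With 1 array left out the dimmer Sc5d probe ranged from -0.28 to 0.0642 and Thrsp from -0.17 to 0.00937, both above 0 only without replicate 2. The cause was not tested. No paired analysis was possible because there is 1 group. Genes near background in either channel have ratios limited by that signal.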
